A study of Mus musculus with 12 samples.

Results

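The translation initiation factors of the fetal mouse liver were taken as every gene whose symbol opens with Eif and a digit, with Eif2s3y left out by the same rule. They made up 56 of the 30743 genes in the table. The rule used names alone and no measured value. It also took in 4 Argonaute genes, which bind small RNAs and are listed under the older symbols Eif2c1 to Eif2c4. RNA came from the whole livers of 12 male C57BL/6J fetuses collected at 15 ± 0.5 dpc. In 6 of them the dam had eaten a control diet with 13.5 kcal% fat, and in 6 an HFD (high-fat diet) with 60 kcal% fat, in both groups for 12 to 14 weeks before harvest. The labels do not say which fetuses shared a dam, and the HFD and control feeds were different products, so fat content and other ingredients cannot be told apart.

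Translation starts when the small ribosomal subunit, loaded with initiator tRNA by the GTP-binding complex eIF2, is brought to the capped end of an mRNA by eIF4F and eIF3. The subunit scans to a start codon with the help of eIF1 and eIF1A, eIF2 hydrolyses its GTP there and leaves with GDP bound, and eIF5B joins the large subunit. The step is held back when a kinase phosphorylates eIF2, which then blocks its exchange factor eIF2B, or when a 4E-BP protein takes the cap-binding protein eIF4E away from eIF4G. The fetal liver is at this age both a growing hepatocyte tissue and the main site of red cell formation, which calls for rapid synthesis of plasma proteins and globin.

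What was measured is 1 average level per gene over all 12 livers, in log2 CPM (read counts scaled to a common library size), computed by the authors. Values of single livers were not analysed here, and the columns of the authors' own diet comparison were not used. No comparison of HFD with control, no SD and no test was therefore made, and every value below is a description of the 12 livers together. The spread between livers is unknown, so neighbours in any order of levels are not said to differ. The steps between the lowest values of the table gave a mean library of 13136639 reads, and from it the reads behind each level. By that reading the 54 members above the lowest value rested on 24.1 to 130247 reads summed over the livers, and 41 of them on over 1000. Counting error was then small for most members. Eif3a had 130247 reads with an exact 95% Poisson interval of 129540 to 130956, while Eif2c3 had 24.1 reads with an interval of 15.5 to 35.9. These intervals cover counting error only.

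A low value in this table cannot be read as low expression. Of the 30743 genes, 11091 (36.1%) were listed at the lowest value, 0.152 CPM, which is that of a gene without reads. Among them was Ddx3x, a helicase that nearly every cell uses, and Hnf4a, a regulator that defines hepatocytes, although the hepatocyte products Alb and Afp stood at 63314 and 54525 CPM. In the erythroid list Hba-a2 and Klf1 were listed at 49708 and 692 CPM, but Alas2, the haem synthesis enzyme of red cells, at 0.704 CPM. The endothelial marker Pecam1 was at the lowest value and Cdh5, of the same cells, at 143.7 CPM. The macrophage markers Emr1 and Cd68 were at 0.152 and 0.209 CPM, and the skeletal muscle genes Myh3 and Ckm at 32.0 and 10.3 CPM. In RNA from a whole organ, fewer cells of a type and less RNA per cell cannot be told apart.

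As a set, the initiation factors were listed high. Their median was 87.1 CPM, at the 90.6th percentile of the 19652 genes with reads, whose median was 1.15 CPM. Of the 56 members, 49 lay above 1 CPM, 40 above 10 CPM and 25 above 100 CPM. Together they summed to 8769 CPM. The 7 members at 1 CPM or less were Eif2ak4, Eif2b4, Eif4ebp3, Eif2c4, Eif2c3, Eif4a1 and Eif4e1b, and the last 2 of these were at the lowest value. Without the Argonautes the 52 remaining members stood at the 90.9th percentile.

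**Figure D1:**
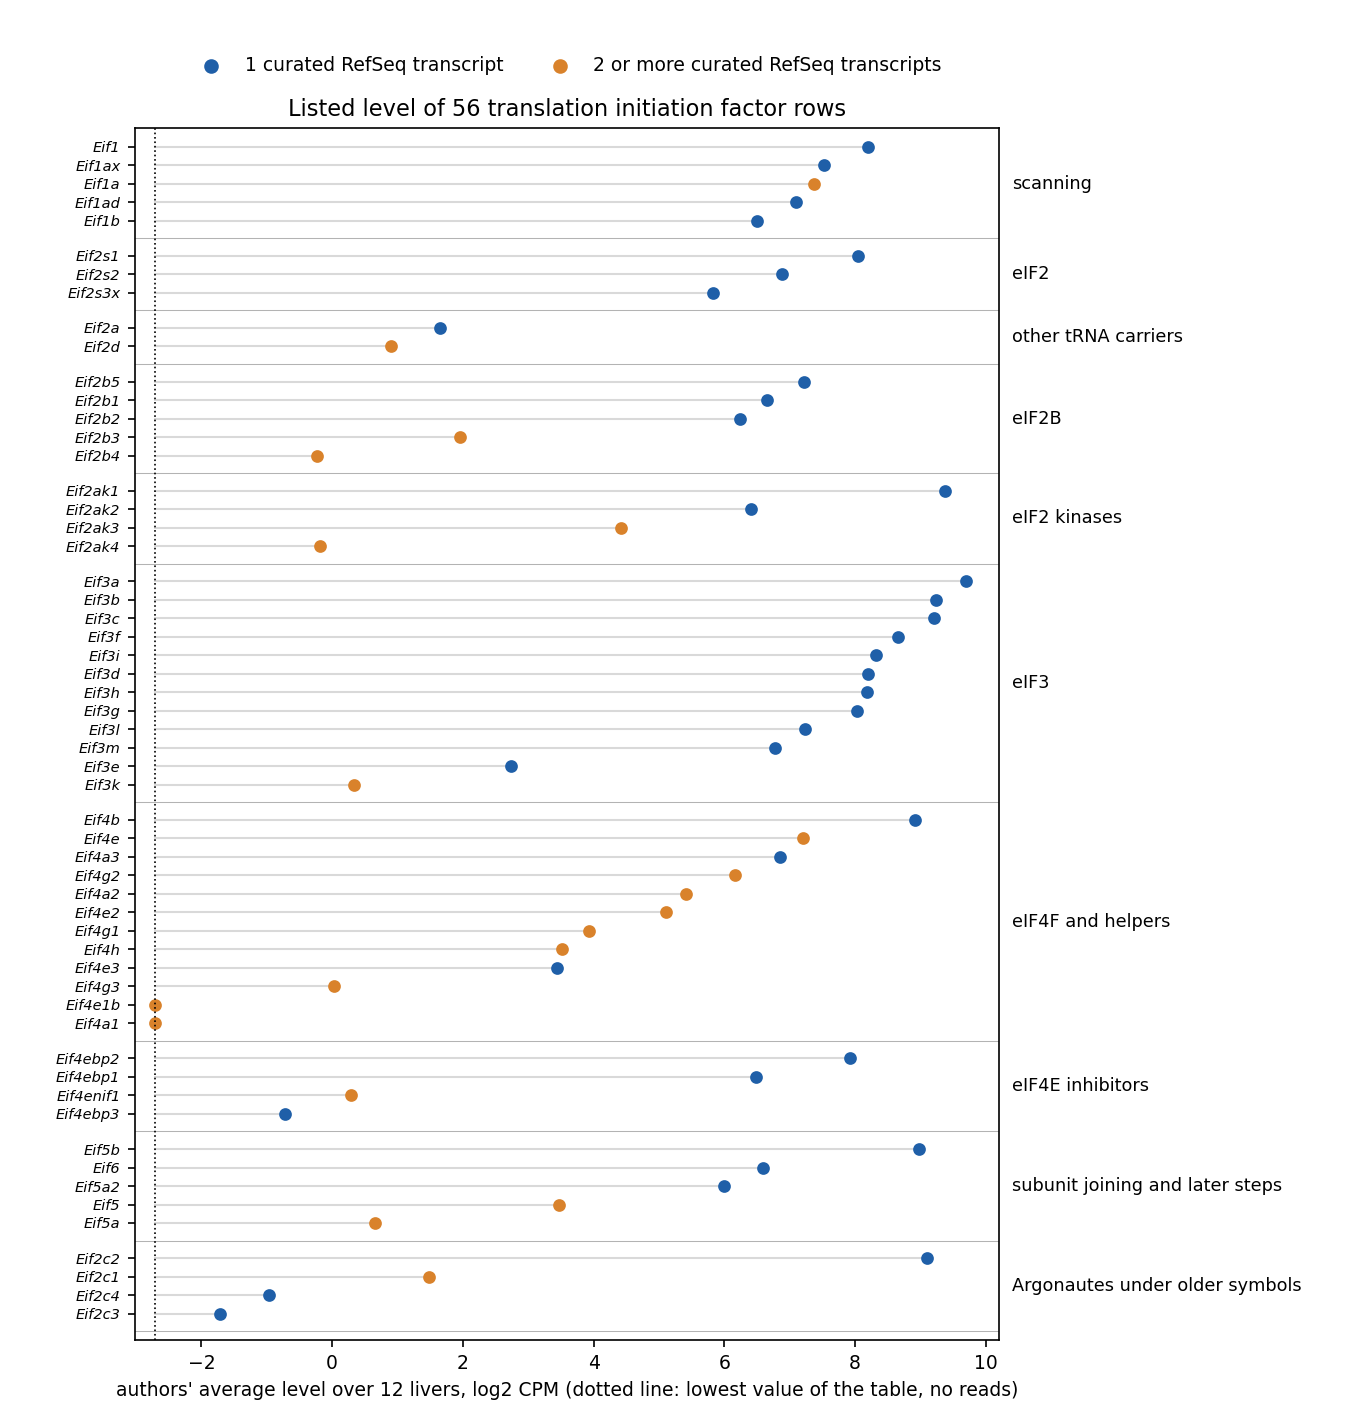
Each point is the authors' average level of a member over 12 livers (horizontal axis, log2 CPM), grouped by role and coloured by the number of curated RefSeq transcripts of its gene. Most of the 12 eIF3 subunits lie at the right, with Eif3e and Eif3k apart from them, and Eif4a1 and Eif4e1b lie on the dotted line that marks the lowest value of the table.

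The scaffold complex eIF3, which holds the small subunit open and joins it to eIF4F, supplied the highest levels. Of its 12 genes in the table, 10 lay above 100 CPM. Eif3a lies at chr19:60761117-60790658 on the minus strand (GENCODE M21 genes, GRCm38). It and the other core subunits Eif3b and Eif3c were listed at 826, 604 and 589 CPM. Eif3f, Eif3i, Eif3d, Eif3h and Eif3g followed at 404, 321, 294, 290 and 261 CPM, and Eif3l and Eif3m at 151 and 109 CPM. The last 2 subunits stood far below the rest. Eif3e was at 6.69 CPM from 1030 reads, and Eif3k, a small subunit that yeast lacks, was at 1.27 CPM from 175 reads. Levels of different genes can be set side by side only per length, here CPM per kb of the union of annotated exons. On that scale the 10 higher subunits ran from 41.4 (Eif3l) to 181 CPM per kb (Eif3b), a 4.36-fold range. Divided by the longest transcript the range was 4.25-fold, and by the median coding transcript 2.58-fold. Eif3e at 0.996 and Eif3k at 0.469 CPM per kb were outside it by any of the 3 lengths.

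The 3 subunits of eIF2 were listed between the 86.8th and the 97.3rd percentile of the genes with reads. Eif2s1, the alpha subunit that the kinases phosphorylate, was listed at 263 CPM, Eif2s2 (beta) at 118 CPM and Eif2s3x (gamma, which binds GTP and the tRNA) at 56.5 CPM. Per kb these 3 genes spanned 3.59-fold, from 14.8 for Eif2s3x to 53.2 for Eif2s1. The range leaves out Eif2s3y, and its share of the gamma subunit in these male livers was not tested. Of the sequence words (defined below) of Eif2s3x, Eif2s2 and Eif2s1, 36.2%, 27.8% and 8.49% also occur in transcripts of other genes. For each gene, most of these shared words occur in a processed pseudogene. Whether this shaped the range was not tested. Eif2a and Eif2d, which can carry tRNA to the ribosome without eIF2, were at 3.15 and 1.86 CPM.

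A start made of a C followed by a run of pyrimidines marks many mRNAs of the translation machinery and ties their translation to growth signals. Of the 56 members, 44 had an entry in the RefSeq promoter table (GRCm38.p6). A C at the annotated start followed by at least 4 pyrimidines was found in 2 of the 44 (4.55%), against 3.01% of 27025 genes. These were subunits of eIF3 and eIF2 that were described above, at 404 and 56.5 CPM. Their starts are shown because they are the only ones of the 44 with such a run. The sequences go from 10 bases before the start to 20 bases from it, with the run counted from the start in capitals. On GRCm38.p6 they lie at chr7:108934405-108934434 (plus strand) and chrX:94212632-94212661 (minus strand).
Eif3f: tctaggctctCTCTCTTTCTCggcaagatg
Eif2s3x: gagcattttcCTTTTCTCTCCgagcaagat
Counted from the annotated start, as the search required, both runs were 11 bases long. Pyrimidines also stood directly before the start in both genes. A gene was counted if any of its annotated starts matched. With at least 7 pyrimidines after the C, Eif3f and Eif2s3x still matched (4.55%), against 0.936% of all genes. Allowing the run to begin up to 5 bases to either side, 13 members (29.5%) held one, against 21.2% of all genes. Whether these shares differ was not tested. Among the 13 members were Eif3b, Eif3l, Eif2b2, Eif2b5 and Eif2ak1. The match is one of letters in the transcribed strand at annotated starts, and no measurement of starts in these livers entered it.

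eIF2B, which reloads eIF2 with GTP, was listed unevenly although its 5 subunits act as a single complex. Eif2b5, the catalytic subunit, was at 149 CPM, and the regulatory subunits Eif2b1 and Eif2b2 at 100.1 and 75.8 CPM. Eif2b3, the partner of Eif2b5 in catalysis, was at 3.88 CPM, and the regulatory Eif2b4 at 0.849 CPM. Per kb the first 3 lay within 1.48-fold of each other, from 38.8 to 57.5, while Eif2b3 and Eif2b4 were at 0.595 and 0.326.

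**Figure D2:**
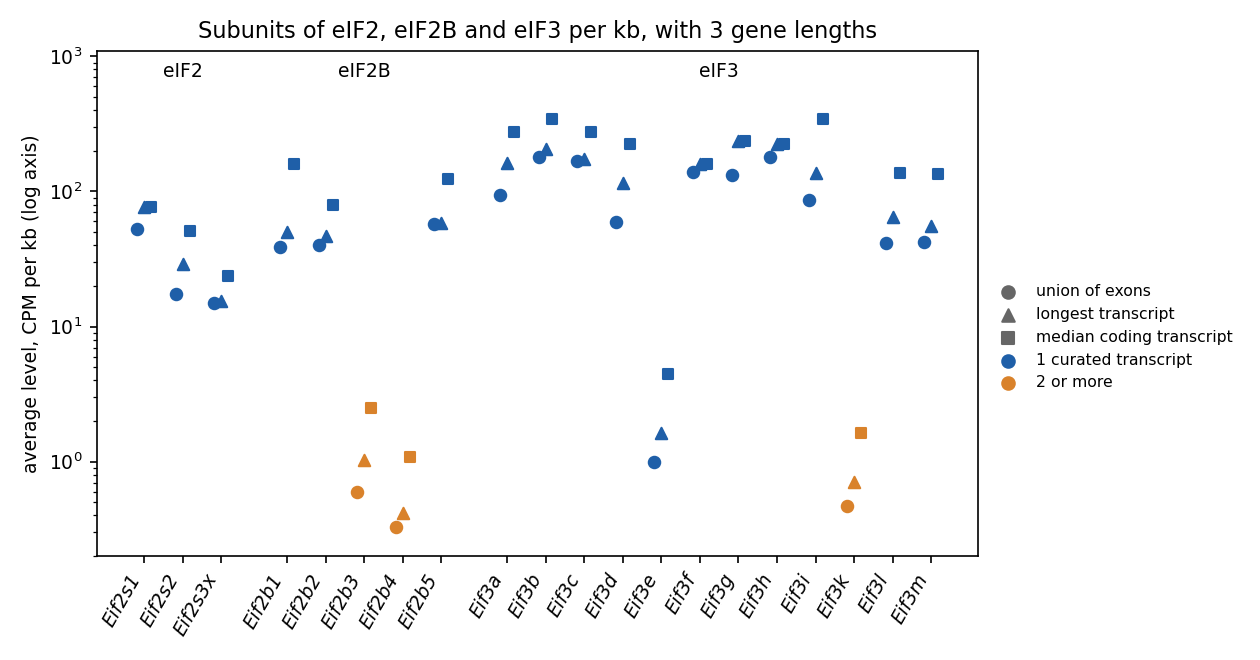
Levels of the subunits of eIF2, eIF2B and eIF3 in CPM per kb (log axis), with the gene length taken as the union of exons (circles), the longest transcript (triangles) or the median coding transcript (squares). Eif2b3, Eif2b4, Eif3e and Eif3k lie below 5 CPM per kb with each length, and the other subunits above 14.

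Among the 4 kinases that phosphorylate eIF2, Eif2ak1 was listed highest. Its protein HRI senses haem and matches globin synthesis to it in red cell precursors. The gene (chr5:143817788-143904251, plus strand) was listed at 662 CPM, or 117 CPM per kb. Eif2ak2 (PKR, activated by double-stranded RNA) was at 84.6 CPM, Eif2ak3 (PERK, of the stressed endoplasmic reticulum) at 21.3 CPM and Eif2ak4 (GCN2, activated by amino acid shortage) at 0.878 CPM. Per kb Eif2ak1 was 7.05-fold above Eif2ak2 and 33.0-fold above Eif2ak3, the latter 19.5-fold with the median coding transcript. Aimp2 and Ankrd61 lie on the opposite strand and overlap 11.6% of the exon bases of Eif2ak1. The library kit does not mark strand, so reads of overlapping genes cannot be told apart. Eif2ak1 and Eif2ak2 have 1 curated RefSeq transcript, Eif2ak3 has 2 and Eif2ak4 has 3. Members with several such transcripts were listed lower as a group (below). Whether this shaped the order of the kinases was not tested. The share of erythroid cells in Eif2ak1's level was not tested either.

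The 5 genes grouped here as scanning factors were all listed above 90 CPM. A part of Eif1ad in scanning was not tested. Eif1, which guards the choice of start codon, was at 294 CPM and its paralogue Eif1b at 90.8 CPM. Eif1ax and Eif1a, which encode forms of eIF1A, were at 183 and 165 CPM. Eif1ad, named for its eIF1A domain, was at 137 CPM, with 15.3% of its exon bases overlapped by Banf1 on the other strand. Per kb the 5 genes spanned 4.02-fold, or 6.26-fold with the longest and 8.96-fold with the median coding transcript. Eif1 was 1.73-fold above Eif1b per kb and Eif1a 1.14-fold above Eif1ax. With the median coding transcript these ratios were 2.61 and 2.38. The coding sequences of these pairs matched at 81.3% and 85.5% of the bases and shared no stretch of 50 bases. Sequence shared with other genes is a separate matter. Of the sequence words of Eif1, 31.6% also occur in transcripts of other genes, 15.9% in coding transcripts of Emd. For Eif1b the share was 0.81%. Whether this shaped their ratio was not tested.

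The cap-binding complex eIF4F and its helpers were listed over a wide range. Eif4b, which stimulates the helicase, was listed at 483 CPM and Eif4h, which has a similar role, at 11.4 CPM. The cap-binding Eif4e was at 148 CPM. Its relatives Eif4e2, which binds caps without starting translation, and Eif4e3 were at 34.3 and 10.8 CPM, and Eif4e1b, known from oocytes, was at the lowest value. Of the scaffolds, Eif4g2, which lacks the site for eIF4E, was at 71.6 CPM, Eif4g1 at 15.2 CPM and Eif4g3 at 1.02 CPM. Per kb Eif4g2 was 3.39-fold above Eif4g1, and 3.33-fold with the longest transcript as the length. The median coding transcript gave 17.9-fold, a value that depends on the lengths taken. For Eif4g2 that length was 752.5 bases, below the 2721 coding bases of its longest coding transcript. For Eif4g1 it was 2848.5 bases, below 4803. Of the DEAD-box proteins, Eif4a3, which belongs to the exon junction complex rather than to eIF4F, was at 115 CPM and Eif4a2, a helicase of eIF4F, at 42.6 CPM. Eif4a1, the usual helicase of eIF4F in dividing cells, (chr11:69666936-69672423, minus strand) was listed at the lowest value. Of the 50-base words in its longest coding transcript, 65.3% also occur in transcripts of other genes, 64.9% in the processed pseudogene Eif4a-ps4. Small nucleolar RNAs overlap 6.62% of its exon bases.

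The inhibitors of eIF4E were led by Eif4ebp2 at 243 CPM and Eif4ebp1 at 89.7 CPM. Per kb these 4E-BP genes were at 42.1 and 40.8. Their order turned with the longest transcript as the length, and the log2 ratio of Eif4ebp1 to Eif4ebp2 was -0.59 with the median coding transcript. Eif4enif1, which carries eIF4E into the nucleus, was at 1.23 CPM. Eif4ebp3 was at 0.605 CPM. A coding gene on the same strand covers 67.3% of its exon bases.

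Of the factors of the later steps, Eif5b, which joins the subunits, was listed at 505 CPM, with 16.8% of its exon bases overlapped by Rev1 on the other strand. Eif6, which keeps the large subunit apart until it is needed, was at 96.6 CPM. Eif5, which triggers GTP hydrolysis by eIF2, was at 11.1 CPM. Eif5a, the common form of the hypusine-bearing factor that helps the ribosome past difficult peptide bonds, was at 1.57 CPM. Its paralogue Eif5a2 was at 63.6 CPM, 19.1-fold above it per kb and 11.6-fold with the longest or 10.3-fold with the median coding transcript. Their coding sequences matched at 72.7% of the bases and shared no stretch of 50 bases. Among the Argonautes, Eif2c2 (Ago2, the one that cuts its targets) was at 551 CPM, and Eif2c1, Eif2c4 and Eif2c3 were at 2.80, 0.514 and 0.305 CPM.

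The listed level went with the number of transcripts annotated for a gene. This was noticed after the levels were seen and is given as a description. The 36 members with 1 curated RefSeq transcript had a median of 143 CPM, and 28 of them lay above 64 CPM. The 20 members with 2 or more had a median of 3.34 CPM, and 3 of them lay above 64 CPM, namely Eif1a, Eif4e and Eif4g2. Both members at the lowest value had several transcripts, 2 for Eif4a1 and 7 for Eif4e1b. Eif5a had 9 and Eif5a2 had 1. Eif2b3, Eif2b4 and Eif3k had 3 each, against 1 for every other subunit of eIF2B and eIF3. The Spearman correlation of log2 CPM with the number of curated transcripts was -0.60 over 56 genes, which share libraries and are not independent.

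Several members went the other way. Eif3e, Eif2a, Eif4e3, Eif4ebp3, Eif2c3 and Eif2c4 had 1 curated transcript and lay under 16 CPM. The split was also weaker with other annotation. By coding transcripts in GENCODE M21, the 17 members with 1 had a median of 137 CPM and the 39 with several 71.6 CPM, with a correlation of -0.36, or -0.41 with all GENCODE transcripts. Across the 20291 protein-coding genes of the table, 15.1% of those with 1 curated transcript and 5.70% of those with several lay above 64 CPM, but the correlation was -0.07. The share at the lowest value went the opposite way there, 24.7% with 1 and 18.4% with several. How reads that fit several transcripts were counted is not given in the sources used here, and its part in the levels was not tested.

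**Figure D3:**
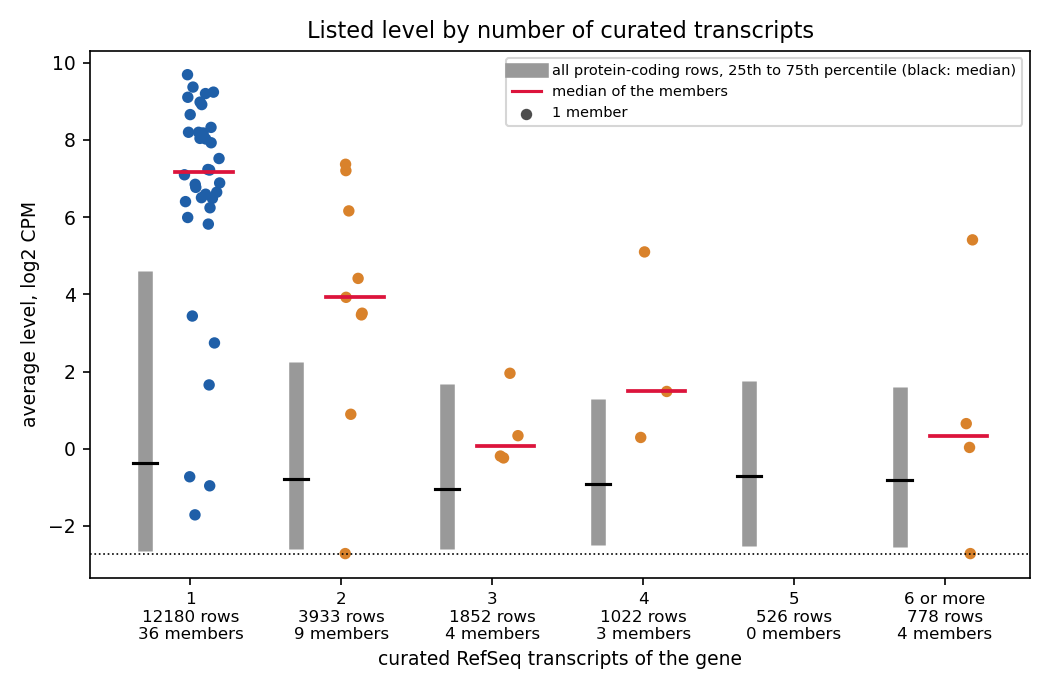
Average level (log2 CPM) against the number of curated RefSeq transcripts of the gene, with all protein-coding genes as grey bars from the 25th to the 75th percentile and each member as a point, its median in red. The 36 members with 1 transcript have a median of 143 CPM and 6 of them lie under 16 CPM, while among members with several transcripts 14 of 20 lie under 16 CPM.

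Sequence shared with other genes did not order the members in the same way. The 50-base words were those of each member's longest coding transcript. The 24 members with over 5% of their 50-base words in transcripts of other genes had a median of 103 CPM, and the 32 others 73.7 CPM. The correlation with level was 0.04, and with the share of exon bases overlapped by other genes it was -0.05. Eif3m, with 40.0% of words shared, and Eif2s3x, with 36.2%, were at 109 and 56.5 CPM, whereas Eif3k shared none at 1.27 CPM. Levels of members with processed pseudogenes or overlapping genes are uncertain, since reads could have been split between them. Of the exon bases of Eif3d, 43.3% overlap an antisense gene.

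**Figure D4:**
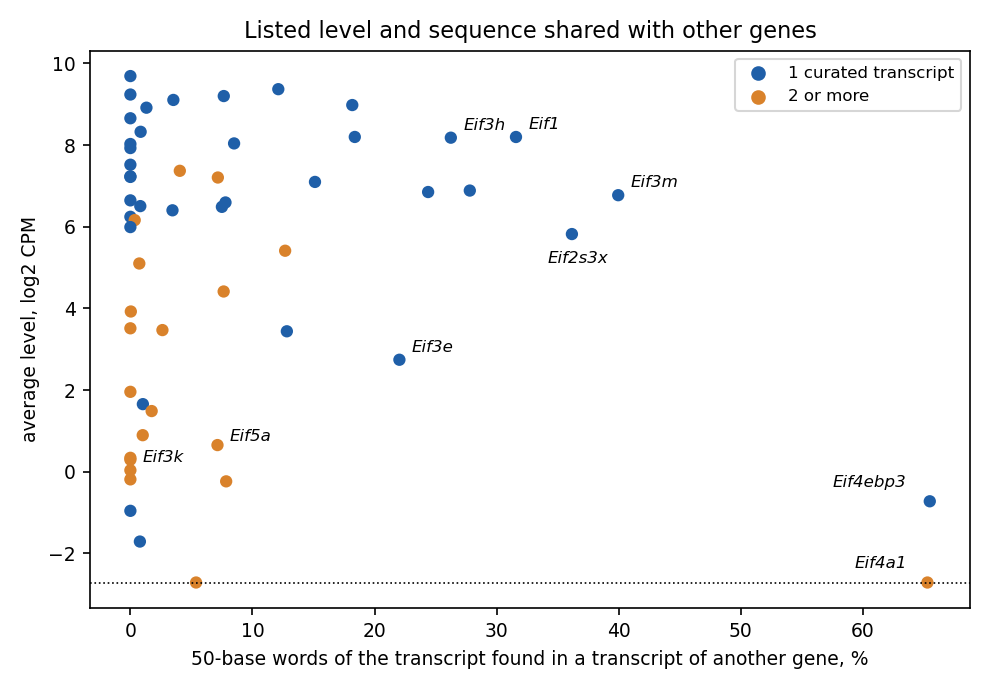
Average level of each member (log2 CPM) against the percentage of its 50-base words that occur in transcripts of another gene. Eif4a1 and Eif4ebp3, both at about 65%, lie at or near the bottom, but members between 20 and 40% reach as high as Eif1 at 294 CPM.

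The other genes of the pathway ranged from the lowest value of the table to 5951 CPM. Of 20 genes that regulate or follow initiation, 15 lay above 1 CPM and 11 above 10 CPM, with a median of 26.1 CPM. The elongation factors Eef1a1 and Eef2 were listed at 5951 and 3805 CPM, and the poly(A)-binding protein Pabpc1 at 1730 CPM. Larp1, which binds pyrimidine-run starts, was at 834 CPM, and the growth kinase Mtor at 128 CPM. Its partner Rptor was at 0.305 CPM and Pdcd4, which inhibits eIF4A, at 0.165 CPM. Of the phosphatase subunits that undo eIF2 phosphorylation, Ppp1r15b was at 183 CPM and Ppp1r15a at 4.21 CPM. In this list too the 11 genes with 1 curated transcript had the higher median, 128 CPM against 4.25 CPM for the 9 with several. Ddx3x, at the lowest value, and Mknk2, at 2.28 CPM, had 1 curated transcript each.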

How the data were processed

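Whole livers were frozen, and polyA RNA was sequenced on an Illumina HiSeq from unstranded TruSeq v2 libraries. Per the labels and the study's methods, reads were checked with fastqc and aligned to mm10 with Subread 1.3.6-p1, and genes were annotated with biomaRt. cutadapt 1.2.1 is named in the submitters' processing notes. The counting tool, normalization and read length are not given in the sources used here. The authors deposited an average log2 CPM per gene over the 12 livers, computed with edgeR. The other columns hold their comparison of the diets (fold changes, p-values and adjusted p-values, with common and tagwise dispersion) and a second copy of the average, and were not used. Of 11 columns, 9 were left out.

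The 2 lowest steps of the average (no reads, and 1 read in 1 liver) differed by a ratio of 1.04, which gave a prior count of 2.00 and the mean library size. Reads behind a level follow from these. The formula was run on simulated data built with a prior of 2 reads, where the step of 1 read was taken from the known counts. Finding that step from the levels alone was therefore not tested, nor was another prior. CPM values include that prior and no other pseudocount was added. Exon lengths and gene overlaps came from GENCODE M21 (GRCm38, the build of mm10), curated transcripts (NM and NR) and starts from RefSeq. GENCODE matched 22857 symbols and RefSeq 22996. Identity of paralogues was taken from coding bases, as no protein table was used, although protein identity had been planned. All members are named, by role. The members and lists were chosen with earlier results of these data known, and the transcript, overlap and shared-word comparisons and the thresholds of 16, 64 and 100 CPM and of 5% were chosen after the levels were seen. Alternatives were other gene lengths, thresholds, sets of genes, run definitions and the prior. Scripts ran under Python 3.11.15, with Biopython 1.88, matplotlib 3.10.9, scipy 1.17.1, pandas 2.3.3 and numpy 2.4.6.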

Additional observations from a re-analysis of the deposited data

How the results depend on the processing

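The percentile of the members' median stayed between 88.5 and 94.0 over all genes, protein-coding genes with reads, or without the Argonautes. Above 10 instead of 1 CPM lay 40 members. A threshold of 0.1 CPM was not run, since the lowest value of the table is 0.152 CPM, nor was the second average, which repeats the first. The median of 29.7 CPM per kb became 48.0 with the median coding transcript as the length. Of the 10 highest members per kb, 7 were also among the 10 highest by CPM. The log2 ratio of Eif4ebp1 to Eif4ebp2 went from -0.04 to 0.094 with the longest transcript. With the median coding transcript, a setting added to the paralogue ratios after seeing the data, 12 of 19 ratios moved by over 1.5 times and none changed direction. Among the 44 members with a promoter entry, the share with a pyrimidine run went from 4.55% to 29.5% when the run could begin within 5 bases of the start. By GENCODE coding transcripts, a choice made after seeing the data, the median of members with several transcripts was 71.6 instead of 3.34 CPM. No paired analysis was possible because values of single livers were not analysed here, and for the same reason no liver was left out. Depth limits only the members with few reads, and the level of a member at the lowest value stays unknown.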
